A study of Mus musculus with 6 samples.

Results

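The 9 genes described here encode enzymes of triglyceride (TAG) synthesis in the liver: Gpam, Agpat2, Agpat3, Lpin1, Lpin2, Lpin3, Dgat1, Dgat2 and Mogat1. They were chosen by their symbols, and all 9 were found among the 17460 gene symbols of the deposited table. All 9 were among the 17297 genes tested. Liver RNA was sequenced from 6 C57BL/6 mice aged 9 months, 3 control and 3 with liver-specific inactivation of the lncRNA Blnc1 (Blnc1 LKO, or LKO), all fed the NASH diet for 24 weeks. NASH is nonalcoholic steatohepatitis, a fatty liver with injury, inflammation and fibrosis. Per the study's methods, Blnc1 LKO mice carried a Cas9 transgene and received an adenovirus with a pair of single-guide RNAs flanking Blnc1 by tail vein, which edits hepatocytes and leaves most other liver cells unedited. Control mice of the study's high-fat diet cohort also carried the Cas9 transgene and received a GFP adenovirus. The vector and Cas9 genotype of the NASH diet controls are not given in the sources used here. The study reports that this editing lowered Blnc1 only in part in whole liver, and more strongly in isolated hepatocytes. The comparison asks whether TAG synthesis genes differ on this diet between control livers and livers edited in this way. No test called a difference for any of the 9 genes.

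Hepatocytes build most of their TAG by the glycerol 3-phosphate pathway. GPAT enzymes such as the product of Gpam add the first fatty acid to glycerol 3-phosphate, AGPAT enzymes (Agpat2, Agpat3) add the next and form phosphatidate, lipins (Lpin1 to Lpin3) remove its phosphate to give diacylglycerol, and DGAT enzymes (Dgat1, Dgat2) attach the last fatty acid. MGAT enzymes such as the product of Mogat1 make diacylglycerol from monoacylglycerol by a separate route. DGAT2 and MGAT1 belong to the same protein family, whereas DGAT1 is unrelated in sequence. SREBP1c, the transcription factor that LXR induces, is known to raise Gpam and other lipid synthesis genes in the liver.

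The 9 genes are protein-coding and lie on 8 chromosomes (GRCm38, also called mm10, GENCODE release M21). Gpam lies on the - strand at chr19:55067268-55127238. Agpat2 lies on the - strand at chr2:26593057-26604417, and Agpat3 on the - strand at chr10:78269178-78352489. The lipin genes are Lpin1 at chr12:16535669-16610966 on the - strand, Lpin2 at chr17:71182560-71249817 on the + strand and Lpin3 at chr2:160880670-160906002 on the + strand. The DGAT genes are Dgat1 at chr15:76502015-76511953 and Dgat2 at chr7:99153658-99182719, both on the - strand. Mogat1 lies on the + strand at chr1:78510991-78538173. Exons of Mogat1 share 200 bases (12.8% of its exon length) with BC035947 on the opposite strand, Agpat2 shares 64 bases with Egfl7 and Agpat3 shares 16 bases with Gm40709. The library kit keeps no strand, so reads in these stretches cannot be assigned to either gene. Exons of the other 6 genes overlap no other annotated gene.

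Short promoter sequences were searched because the study places Blnc1 in the LXR and SREBP1c pathway. RefSeq start sites (GRCm38.p6) gave 11 windows for 7 of the 9 genes, each from 250 bases before to 50 after a start. Dgat1 and Dgat2 had no window, so the counts below do not cover them. The E-box CACGTG, a site that SREBP1 and ChREBP can bind, was found in 2 of the 11 windows and in 7.15% of all 32851 windows. The sterol regulatory element TCACNCCAC was found in 0 of the 11 and in 1.24% of all, and the LXR element of a pair of AGGTCA half-sites 4 bases apart in 0 of the 11 and in 0.0152% of all, on either strand. A match is a description and not a measured binding site, and the absence of these letters from a window says nothing of a factor's binding. The matches in Lpin2 (chr17:71183511-71183540, + strand, RefSeq) and Lpin3 (chr2:160880680-160880709, + strand, RefSeq) are shown with 12 bases on each side, and the capitals mark the E-box:
Lpin2: cggagctcgcgtCACGTGgccgggccgggg
Lpin3: gcctgtttctgcCACGTGgctcacagctca

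Each value is a normalized read count, which is the reads on a gene over a size factor that the authors set for each liver, with no correction for gene length. The livers had 65384969 to 89350181 reads on the listed genes. Counts of replicates differed by more than sampling noise in every pair, and each liver counted as 1 replicate. The labels do not say that the livers came from separate litters or cages, so p-values measure the spread between these 6 livers. The table has no row for Blnc1. RefSeq lists Blnc1 as a synonym of Paqr9, but the study treats Paqr9 as the adjacent gene and reports its mRNA as unaffected by the editing. Paqr9 values were 15156 to 18810 in control and 15663 to 20027 in LKO livers, and they are not a measure of Blnc1. The loss of Blnc1 was therefore not checked. Groups were compared by limma on log2(value + 1) with Benjamini-Hochberg adjustment over all 17297 genes. An exact permutation test of 3 livers against 3 cannot give a p below 0.1. Over all genes, 1 (0.00578%) passed an adjusted p of 0.05, 983 (5.68%) had an unadjusted p under 0.05, and 1839 (10.6%) had groups that did not overlap.

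The labelled tissue was checked with marker genes. All 8 hepatocyte markers were in the table, and their summed value was 5191426 to 5765225 in control and 5080167 to 6104676 in LKO livers. Other cell types were measured together with hepatocytes, and in whole liver RNA fewer cells of a type and less RNA per cell cannot be told apart. The summed values of the stellate cell (7 genes), cholangiocyte (5 genes), lymphocyte (4 genes) and adipocyte (5 of 6 genes listed) markers overlapped between groups, as did those of the 7 macrophage markers (79512 to 86223 in control and 85716 to 89589 in LKO livers). The 6 endothelial markers summed to 22227 to 23485 in control and 21457 to 22140 in LKO livers, without overlap. Of the adipocyte markers, Adipoq, Plin1 and Retn were at or near 0, with values of at most 4.18, 2.13 and 2.51. Adrb3 (500 to 1087 over the 6 livers) and Cidea (2286 to 5561) were not, and they made up nearly all of the adipocyte sum. The muscle markers in the table (3 of 4) summed to 6.39 to 12.1 in control and 13.1 to 21.6 in LKO livers, without overlap. Each of these muscle genes was close to the limit of detection, with no value above 12.2. Of the 4 pancreas markers Cela1 alone was in the table, at 1013 to 1156 in control and 1200 to 1329 in LKO livers, also without overlap. No marker passed the adjustment in limma, but single stellate cell and macrophage markers separated the groups where the sum of their list did not. Among stellate cell markers, Col1a1, a collagen chain, was at 11645 to 15541 in control and 8006 to 10928 in LKO livers (log2 fold change −0.61, adjusted p = 0.548), and Acta2, the smooth muscle actin of activated stellate cells, was at 528 to 574 and 332 to 425 (log2 fold change −0.52, adjusted p = 0.548). Among macrophage markers, Marco was at 23.4 to 87.4 in control and 95.8 to 794 in LKO livers (log2 fold change 3.03, adjusted p = 0.577), and Adgre1 at 4393 to 4694 and 4867 to 5287 (log2 fold change 0.15, adjusted p = 0.840). The endothelial markers Pecam1 (log2 fold change −0.17, adjusted p = 0.818) and Cdh5 (−0.14, adjusted p = 0.824) were lower in each LKO liver than in each control liver. Lyve1 differed more (−0.57, adjusted p = 0.695, limma), but its groups overlapped. Over whole lists, endothelial markers were 2 higher and 4 lower, macrophage markers 6 higher and 1 lower, and stellate cell markers 1 higher and 6 lower. Unadjusted p values under 0.05 in limma were found for 2 of 7 stellate, 3 of 7 macrophage, 3 of 6 endothelial and 0 of 8 hepatocyte markers. Of the other markers tested they were found for 0 of 5 cholangiocyte, 0 of 4 lymphocyte, 0 of 4 adipocyte, 0 of 3 muscle and 1 of 1 pancreas markers. Over all genes the share was 5.68%. The part of these markers in the values of the 9 genes was not tested.

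Across the 9 genes, the mean was lower in LKO livers for 5 and higher for 4, and on the log2 scale 50.4% of all genes were lower. None was called by limma (adjusted p from 0.870 to 0.997), by edgeR's quasi-likelihood test or by DESeq2 on the recovered reads. A single gene, Dgat1, had an unadjusted p under 0.05 in limma and in edgeR, and no gene did in DESeq2. The share of all genes called was 0.0116% in edgeR and 0.538% in DESeq2, and 5.6% and 4.89% had an unadjusted p under 0.05. The median log2 fold change of the 9 genes was −0.06, and that of all genes was −0.00099. The median of the 9 turned sign without control replicate 2 (0.03), without LKO replicate 1 (0.06) and without LKO replicate 2 (0.01). In 1 of the 9 the groups did not overlap, against 10.6% of all genes.

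**Figure D1:**
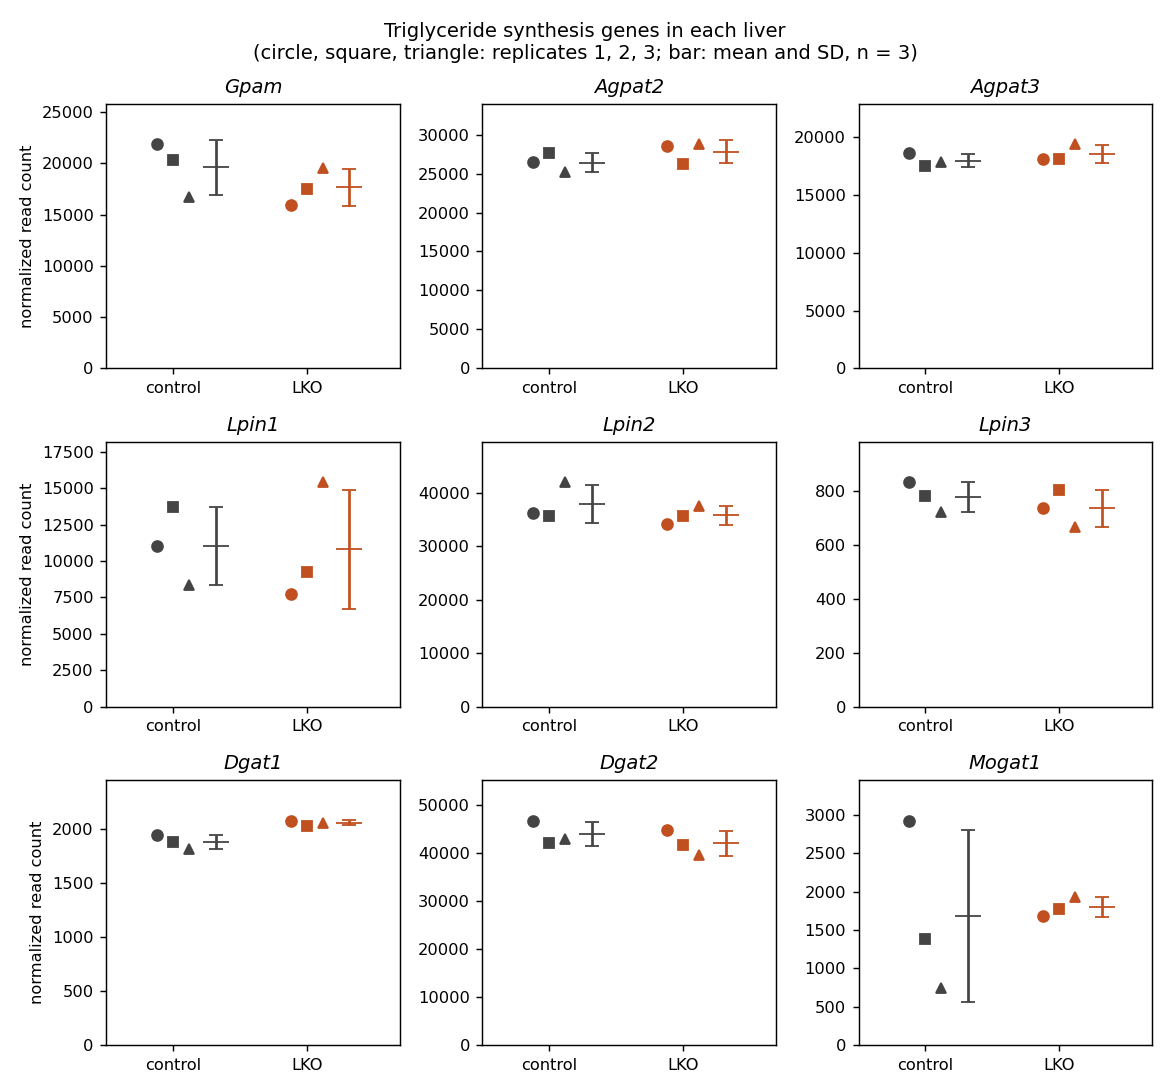
Normalized read count (vertical axes, from 0) of the 9 genes in each of 6 livers, control in grey and LKO in orange, with the mean and SD of 3 livers beside the points. Dgat1 is the gene whose groups do not overlap, and the control values of Mogat1 run from 749 to 2928.

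**Figure D2:**
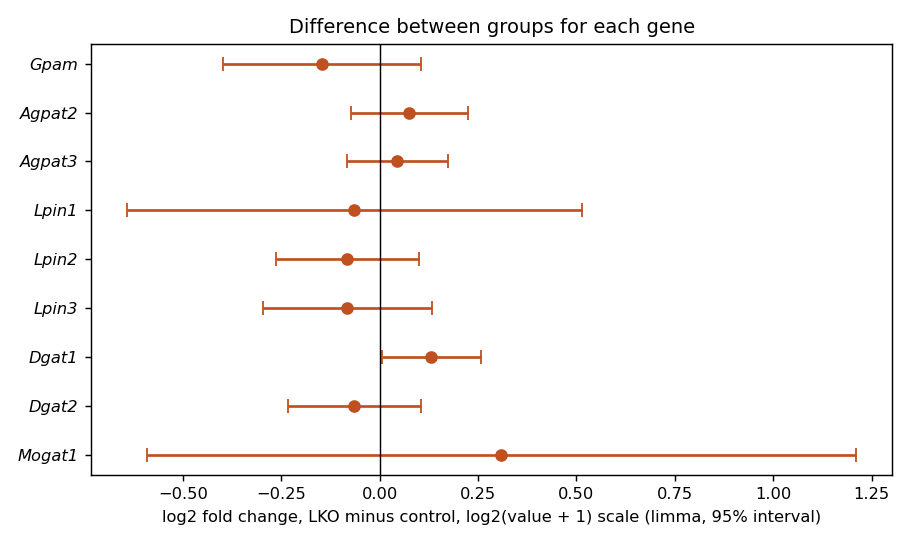
Log2 fold change of each gene, LKO minus control, from limma on log2(value + 1), with its 95% interval. The intervals of Lpin1 and Mogat1 are the widest of the 9, and that of Dgat1, unadjusted for the number of genes, starts at 0.0049.

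Gpam encodes the mitochondrial GPAT that opens the pathway. Its value was 21879, 20313 and 16675 in control livers and 15965, 17462 and 19571 in LKO livers. The highest 2 values were of control livers and the lowest was of LKO replicate 1, but the groups overlapped. The mean was 19622 ± 2670 in control and 17666 ± 1812 in LKO livers (SD, n = 3 a group), a change of −9.97%. The log2 fold change was −0.15 (standard error, SE, 0.11, 95% interval −0.40 to 0.10, adjusted p = 0.968, limma). It was −0.06 without control replicate 1 and −0.26 without control replicate 3.

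AGPAT2, whose loss in humans causes congenital lipodystrophy, forms phosphatidate in liver and fat. The Agpat2 value was 26419, 27616 and 25181 in control and 28515, 26164 and 28788 in LKO livers. Both the highest values were of LKO livers, and the third lay within the control range. The mean was 26405 ± 1217 in control and 27822 ± 1443 in LKO livers (SD, n = 3 a group), and the log2 fold change was 0.08 (SE 0.065, 95% interval −0.07 to 0.22, adjusted p = 0.971, limma). Agpat3 encodes an acyltransferase of the same family, with a preference for polyunsaturated acyl chains. Its value was 18601, 17464 and 17798 in control and 18135, 18073 and 19389 in LKO livers, which gave 0.05 as the log2 fold change (SE 0.057, 95% interval −0.08 to 0.17, adjusted p = 0.978, limma). All 6 livers lay within a 1.11-fold range for Agpat3, the narrowest of the 9 genes.

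The lipins are phosphatidate phosphatases that also act in the nucleus as coregulators of transcription, and Lpin1 is known to be induced in liver by fasting and glucocorticoids. Lpin1 had 11007, 13705 and 8346 in control livers and 7714, 9278 and 15405 in LKO livers. LKO livers held both the lowest and the highest value. The means were 11020 ± 2679 and 10799 ± 4065 (SD, n = 3 a group), and the log2 fold change was −0.06 (SE 0.25, 95% interval −0.64 to 0.51, adjusted p = 0.997, limma). The sign of the Lpin1 value rested on single livers: it was 0.15 without LKO replicate 1, 0.11 without control replicate 2, 0.01 without LKO replicate 2, and −0.35 without LKO replicate 3.

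Lpin2 had the highest level per exon length of the 3 lipins. Its value was 36179, 35700 and 41984 in control and 34099, 35742 and 37488 in LKO livers, and the log2 fold change was −0.08 (SE 0.080, 95% interval −0.26 to 0.10, adjusted p = 0.973, limma). Control replicate 3 stood above the other 5 livers. Without it the Lpin2 difference was −0.0076. Lpin3, a lipin of low level, had 834, 781 and 723 in control and 739, 805 and 668 in LKO livers, and the log2 fold change was −0.08 (SE 0.094, 95% interval −0.30 to 0.13, adjusted p = 0.973, limma). Without LKO replicate 3 it was −0.01, and without LKO replicate 2 it was −0.15. The lowest Lpin3 count of a liver was 621 reads, for which counting alone gives an error of 4.01%.

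DGAT1 and DGAT2 catalyse the same last step from different membrane sites, DGAT1 being tied mainly to the reuse of fatty acids from outside the cell and DGAT2 to those newly made. Dgat1 had 1951, 1879 and 1818 in control livers and 2083, 2035 and 2065 in LKO livers. Each LKO liver was above each control liver, as for 925 of all genes (5.35%). The mean was 1883 ± 66.7 in control and 2061 ± 24.0 in LKO livers (SD, n = 3 a group), 9.44% higher. The log2 fold change was 0.13 (SE 0.055, 95% interval 0.0049 to 0.26), with an unadjusted p of 0.0434 and an adjusted p of 0.870 in limma. On the recovered reads it was 0.13 in both edgeR (adjusted p = 0.859) and DESeq2 (adjusted p = 1.000). The muscle marker sum (of genes close to the limit of detection), Cela1, Marco and Adgre1 also separated the groups in the same direction. The endothelial marker sum, Col1a1 and Acta2 did so in the opposite direction. Their part in the Dgat1 difference was not tested.

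Dgat2 had 46666, 42081 and 42729 in control livers and 44733, 41540 and 39530 in LKO livers. The highest value was of a control liver and the lowest 2 were of LKO livers, with the third between the control values. The mean was 43825 ± 2481 in control and 41934 ± 2624 in LKO livers (SD, n = 3 a group), a change of −4.32%, and the log2 fold change was −0.06 (SE 0.074, 95% interval −0.23 to 0.10, adjusted p = 0.973, limma). As a fold, this interval ran from 0.851 to 1.08. The log2 fold change was −0.02 without control replicate 1 and −0.11 without LKO replicate 1.

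Mogat1, an MGAT gene that is low in healthy mouse liver and known to be raised in steatotic liver, varied most of the 9 genes between livers. Its value was 2928, 1383 and 749 in control livers and 1679, 1780 and 1932 in LKO livers. The control livers spanned a 3.91-fold range that enclosed the 3 LKO livers, which spanned 1.15-fold. The means were 1686 ± 1121 and 1797 ± 127 (SD, n = 3 a group). The log2 fold change was 0.31 (SE 0.39, 95% interval −0.59 to 1.21, adjusted p = 0.978) in limma and 0.09 (adjusted p = 0.999) in edgeR, which compares mean counts rather than mean logs. It was 0.82 without control replicate 1 and −0.17 without control replicate 3.

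The precision differed between the genes. The 95% interval of the fold was widest for Mogat1 (0.664 to 2.31) and Lpin1 (0.641 to 1.43), and for the other 7 genes the intervals all lay between 0.758 and 1.19. The SD between livers of a group, on the log2 scale, had a median of 0.104 over the 9 genes and of 0.134 over all genes. It was 0.700 for Mogat1, a value that 8.23% of all genes exceeded, and 0.445 for Lpin1, exceeded by 16.4%. It was 0.0380 for Dgat1, which 95.6% of all genes exceeded.

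Levels of different genes were compared per kilobase (kb) of exon, with the union of the exons of each gene in GENCODE M21 as its length. On this scale Dgat2 stood first, with a median over the 6 livers of 13755 per kb, followed by Agpat2 at 12684. Both lay above the next gene in every liver, and their own ranges overlapped, with Dgat2 above Agpat2 in 5 of 6 livers. Lpin2 (2940 per kb), Gpam (2779) and Agpat3 (2324) formed the middle of the order, with overlapping ranges between neighbours. Mogat1 (1110 per kb) and Lpin1 (1049) came next and overlapped, each being the higher in 3 of 6 livers. Dgat1 (652 per kb) and Lpin3 (206) were lowest, and the ranges of Lpin1, Dgat1 and Lpin3 were separate from each other, while the range of Mogat1 (481 to 1879 per kb) enclosed that of Dgat1 (595 to 681 per kb). The median of Dgat2 was 66.9 times that of Lpin3. Liver transcripts may use fewer exons than the annotation holds, which would raise the level per kb of genes with many listed isoforms.

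**Figure D3:**
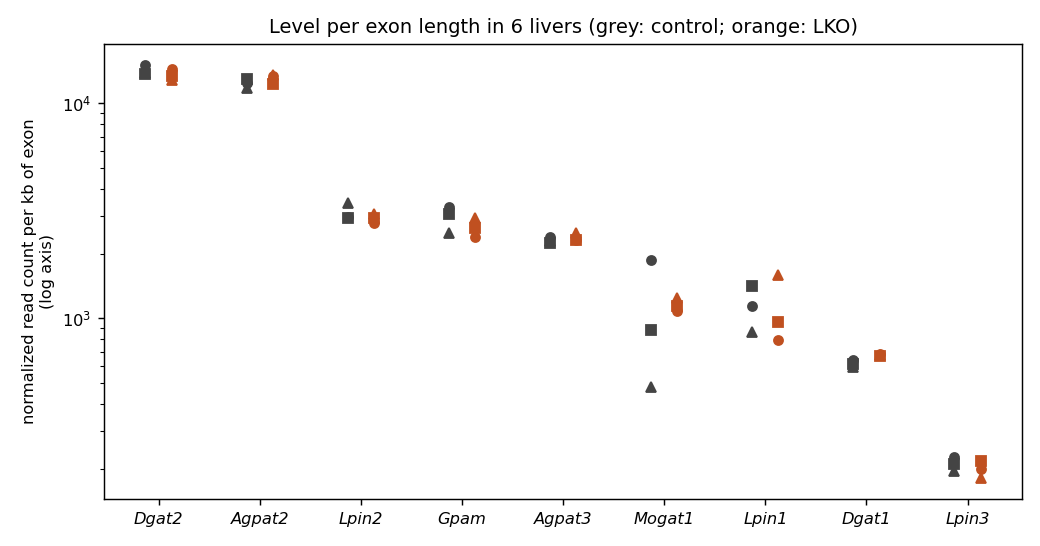
Normalized read count per kb of exon (log axis) of the 9 genes in 6 livers, ordered by the median, control in grey and LKO in orange. Dgat2 and Agpat2 lie above the other genes in every liver, and Lpin3 lies below them.

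Shares of enzymes of one step within a liver do not depend on the scaling between livers. Dgat2 made up 95.95%, 95.69% and 95.88% of the DGAT level per kb in control livers and 95.51%, 95.29% and 94.99% in LKO livers. Each LKO liver was below each control liver, with a mean difference of −0.575 percentage points (exact permutation test, two-sided, p = 0.1, the smallest p that 3 livers against 3 allow, and 0.4 adjusted over 4 shares). This share holds the same Dgat1 values that separated the groups above, so it is not independent of them. Lpin1 made up 25.6% ± 6.01 of the lipin level in control and 25.8% ± 6.28 in LKO livers (SD, n = 3 a group, exact permutation test, p = 1). Agpat2 made up 84.3% ± 0.825 and 84.6% ± 0.549 of the summed level of Agpat2 and Agpat3 (SD, n = 3 a group, exact permutation test, p = 0.6). Gpam made up 54.7% ± 6.42 and 52.0% ± 5.05 of the summed level of Gpam and Gpat4, a GPAT of the endoplasmic reticulum (SD, n = 3 a group, exact permutation test, p = 0.5).

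The 9 genes did not share a pattern across the livers. Over the 36 pairs, Pearson's r of log2(value + 1) across the 6 livers had a median of 0.0617 and ran from −0.679 (Lpin2 and Mogat1) to 0.767 (Gpam and Lpin1). All values of a liver share its size factor and RNA, and 6 livers give a rough description, so no p is given. Control replicates 1 and 2 and LKO replicate 3 had the 3 highest values of Gpam and also of Lpin1.

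Of 12487 other genes with a mean value of at least 100, the gene most like Gpam across the 6 livers was Plin2, which encodes a coat protein of lipid droplets, with r = 0.996. Plin2 had 97730, 93436 and 81098 in control and 79205, 83148 and 89340 in LKO livers and the 6 livers stood in the same order as for Gpam. Rhou (r = 0.989) and Nkiras2 (r = 0.983) came next. With this many genes and 6 livers high values are common, and 120 genes had r above 0.9 with Gpam. For Dgat2 the nearest genes were Dll1 (r = 0.985), Txnrd2 (r = 0.982) and Mettl18 (r = 0.975), and 43 genes were above 0.9. For Mogat1 they included Tmem177 (r = 0.991) and Wdfy1 (r = 0.984), and 60 were above 0.9. Cidea, a lipid droplet gene that steatotic hepatocytes also express, was chosen after its values were seen. It had 3963, 5561 and 3497 in control and 2286, 3391 and 5295 in LKO livers, and its r with Lpin1 was 0.929.

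**Figure D4:**
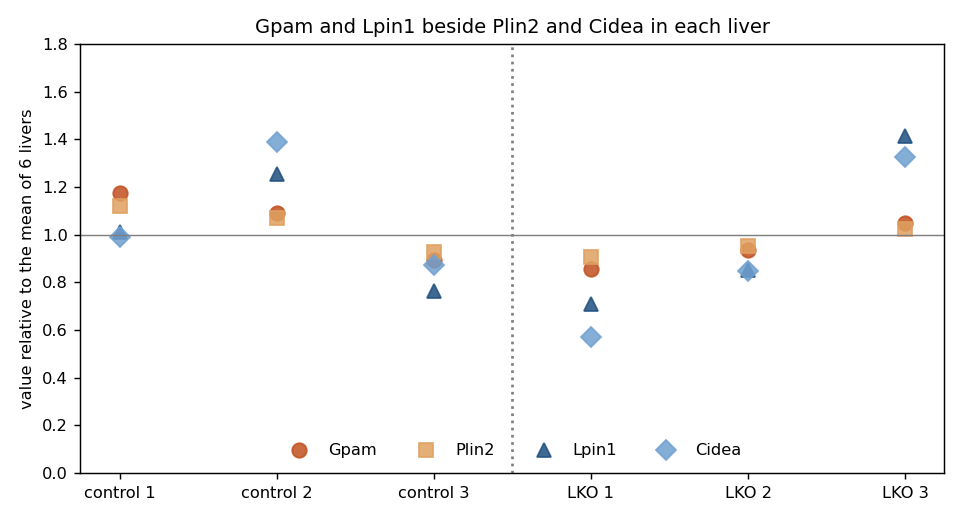
Values of Gpam, Plin2, Lpin1 and Cidea in each liver, relative to the mean of the 6 livers, with control livers left and LKO livers right of the dotted line. Gpam and Plin2 move closely together, Lpin1 and Cidea are highest in control replicate 2 and LKO replicate 3, and the groups overlap for all 4 genes.

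Around the 9 genes, 63 of 65 listed genes of the wider pathway were in the table and tested. None passed the adjustment in limma or in edgeR, 1 did in DESeq2, and 7 had an unadjusted p under 0.05 in limma (5.68% of all genes did). On the log2 scale 37 were higher and 26 lower in LKO livers, with a median log2 fold change of 0.01, and the groups did not overlap for 9 of the 63 (10.6% of all genes). For each list the 2 genes of smallest unadjusted p are named.

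The genes that supply the substrates came first. Of 5 acyl-CoA synthetase genes, which activate fatty acids, 3 were lower and 2 higher, with a median of −0.05. Acsl3 had 3325 ± 568 in control and 2484 ± 245 in LKO livers (SD, n = 3 a group, log2 fold change −0.41, adjusted p = 0.745, limma), and Acsl4 had 9286 ± 505 and 8398 ± 651 (log2 fold change −0.15). Of 6 genes for glycerol 3-phosphate supply, 4 were higher and 2 lower, with a median of 0.09. Aqp9, the glycerol channel of hepatocytes, had 40054 ± 569 and 45132 ± 3488 (log2 fold change 0.17, adjusted p = 0.870), and Aqp3 was close to the limit of detection with means of 3.37 and 7.24.

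Other enzymes of the same steps came next. Of 7 other GPAT and AGPAT genes, 3 were higher and 4 lower with a median of −0.02, and none had an unadjusted p under 0.05 in limma. The smallest p values were those of Gpat3 (1978 ± 252 in control and 1712 ± 275 in LKO livers, log2 fold change −0.21) and Agpat5 (1304 ± 37.0 and 1258 ± 25.2). Of the MGAT and DGAT family, 3 of 5 genes were in the table, 2 higher and 1 lower, with a median of 0.20. Awat2, a wax ester synthase of that family, had means of 103 and 146 (log2 fold change 0.48, adjusted p = 0.860), and Mogat2 had 90.6 and 103. Of 4 other phosphatidate phosphatase genes, 3 were lower and 1 higher with a median of −0.06, with Plpp2 at 3267 ± 265 and 2935 ± 474 and Plpp3 at 17642 ± 284 and 16819 ± 1557.

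Partners and neighbouring branches were as follows. Of 6 genes for lipin activation and lipid droplet assembly, 5 were higher and 1 lower, with a median of 0.13. Bscl2, which encodes the droplet protein seipin, had 3523 ± 116 in control and 3873 ± 109 in LKO livers (SD, n = 3 a group, log2 fold change 0.14, adjusted p = 0.842, limma), and Fitm1 had 5037 ± 530 and 5648 ± 665. Of 10 genes of the phospholipid branch, 5 were higher and 5 lower with a median of 0.0012, Selenoi (log2 fold change 0.11) and Pcyt2 (−0.05) having the smallest p values. These 10 genes include Lpcat3, a known LXR target, with 15410 in control and 15715 in LKO livers on average. Of 12 genes for TAG hydrolysis, 8 were higher and 4 lower with a median of 0.04. Ces1g, a carboxylesterase, had 19258 ± 2112 and 23876 ± 3516 (log2 fold change 0.31, adjusted p = 0.840), and Lipe, the hormone-sensitive lipase, had 1295 ± 198 and 1528 ± 127 (log2 fold change 0.25, adjusted p = 0.891).

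Of 10 transcriptional regulators, 7 were higher and 3 lower, with a median of 0.02. Srebf1, which encodes SREBP1, had 52837, 43792 and 48788 in control and 34010, 34234 and 40659 in LKO livers, without overlap. Its log2 fold change was −0.42 (SE 0.097, adjusted p = 0.548, limma). It was the 1 pathway gene among the 84 genes that DESeq2 called, and neither limma nor edgeR called it. The 95% intervals of the log2 fold change of Gpam and Dgat2 began at −0.40 and −0.23, and no test of the difference between these genes and Srebf1 was run. Nr1h3, which encodes LXRα, had 8661 ± 182 and 9157 ± 322 (SD, n = 3 a group, log2 fold change 0.08, adjusted p = 0.951, limma).

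**Figure D5:**
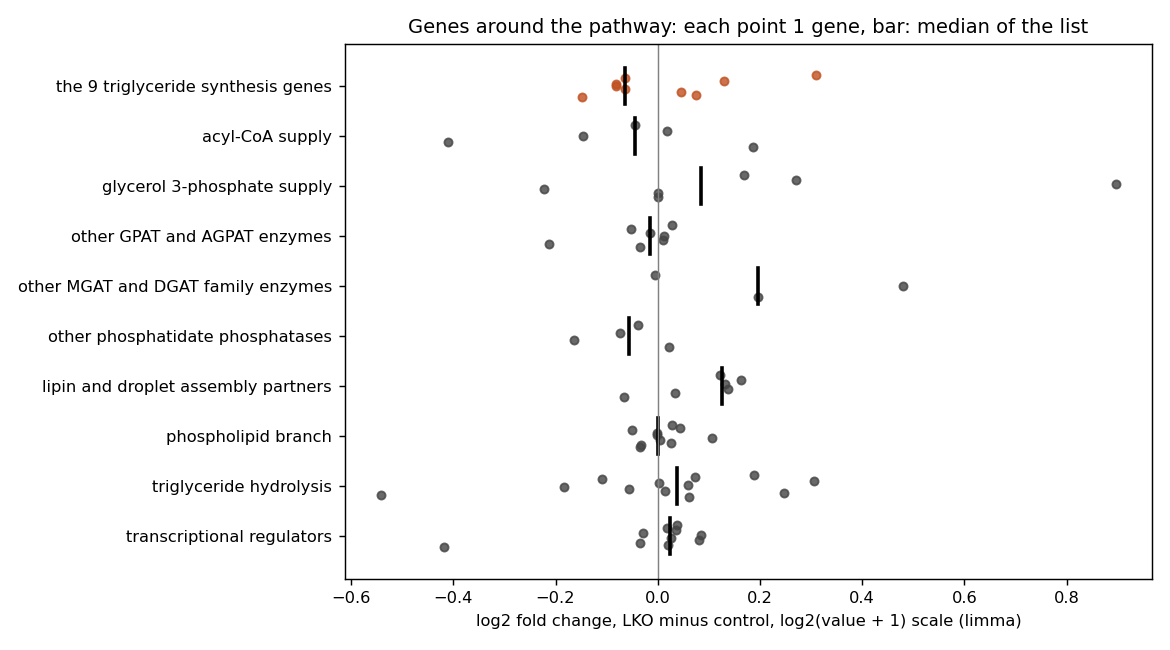
Log2 fold change (LKO minus control, limma on log2(value + 1)) of the 9 genes in orange and of 63 other genes of the pathway in grey, each point a gene and each bar the median of its list. The medians lie between −0.06 and 0.20, and the lowest point among the regulators is Srebf1 at −0.42.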

How the data were processed

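PolyA-selected liver mRNA of 3 control and 3 Blnc1 LKO mice was sequenced. Per the labels and the study's methods, the authors used FastQC, used STAR to align to mm10, HTSeq for counts and DESeq2; versions and annotation are not given in the sources used here. The signal in the deposited table is a gene's reads over a size factor for each liver. Columns named wild-type or knockout with a number were matched to the control and LKO livers of that number. Dividing each column by its smallest value above 0 recovered the reads, and 100% of values came out whole (tolerance 0.01).

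limma 3.58.1 (R 4.3.3; lmFit, eBayes with trend) was fitted to log2(value + 1) over the genes reaching a value of 1 in 3 or more livers. edgeR 4.0.16 and DESeq2 1.42.0 were run on the recovered reads. On simulated counts with 200 genes changed by 1.5 (log2), limma recovered 97.5% of them and called 10 others among 17126 genes. For edgeR these were 97% and 12, and for DESeq2 98% and 36, among 17297 genes. In the main limma fit the largest log2 fold change of a TAG synthesis gene was 0.31 (Mogat1), and that of Srebf1 was −0.42. The simulation held no changes this small, so it gives no rate of recovery for them. The members, lists and tests were chosen with earlier results of these data known. Named list genes are the 2 of smallest unadjusted p per list; likeness was ranked for Gpam, Dgat2 and Mogat1 (3 genes each, of which 1 is not reported here). Older symbols were matched through a list of aliases (Gpat4 as Agpat6, for example). Intervals for counting cover counting error only.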

Additional observations from a re-analysis of the deposited data

How the results depend on the processing

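Under 13 alternatives (a pseudocount of 0.1, no filter, at least 10 reads in every liver, edgeR with TMM or with library size only, DESeq2, the replicate number as a block, and each liver left out in turn), 0 of the 9 genes passed an adjusted p of 0.05 (lowest 0.464, for Dgat1 without LKO replicate 2). At an unadjusted p under 0.05 each setting gave at most 1. With a liver left out, this gene was Dgat1 without LKO replicate 2, Mogat1 without control replicate 1 and Gpam without control replicate 3. The other fits with a liver left out gave none. The filters and the block leave a fold change as it is by construction. With each liver left out it turned sign for Lpin1 (−0.35 to 0.15) and Mogat1 (−0.17 to 0.82), and it ran from −0.26 to −0.06 for Gpam, 0.04 to 0.12 for Agpat2, 0.01 to 0.07 for Agpat3, −0.12 to −0.0076 for Lpin2, −0.15 to −0.01 for Lpin3, 0.11 to 0.16 for Dgat1 and −0.11 to −0.02 for Dgat2. Over all genes 1 passed, with 2 without a filter, 2 in edgeR with TMM, 84 in DESeq2, 0 with the replicate block (912 at an unadjusted p under 0.05) and 0 to 13 with each liver left out (0 without control replicate 1, with 665 at an unadjusted p under 0.05, and 13 without LKO replicate 2). Of the pathway genes, 1 passed in DESeq2 (Srebf1). The median of the 9 genes ran from −0.0815 to 0.0567 with each liver left out. The differences in shares, in percentage points, ran with each liver left out from −0.0254 to 0.753 for Agpat2, from −3.34 to 3.02 for Lpin1, from −6.3 to 0.224 for Gpam, and from −0.699 to −0.439 for Dgat2. The cause of these shifts was not tested. Same-numbered livers did not deviate together (r = −0.0584, −0.0191 and −0.107 over genes), and no liver correlated best with its own number. Deviations from a group mean are tied to each other, so these correlations cannot exclude a shared litter, cage or batch. Shares without division by length kept their sign.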
